A study of Homo sapiens with 6 samples.

Results

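The noncoding host genes of small nucleolar RNAs (snoRNAs) studied here are 10 genes: GAS5, SNHG1, SNHG5, SNHG6, SNHG8, SNHG12, SNHG16, SNHG29 (also called LRRC75A-AS1), ZFAS1 and EPB41L4A-AS1. They were listed by Ensembl ID, and the list was made with earlier results of these data known. All 10 were found among the 60554 gene IDs of the count files. In the same order the IDs are ENSG00000234741, ENSG00000255717, ENSG00000203875, ENSG00000245910, ENSG00000269893, ENSG00000197989, ENSG00000163597, ENSG00000175061, ENSG00000177410 and ENSG00000224032. RNA was sequenced from the 40S fraction of a sucrose gradient of HCT116, an established human colorectal carcinoma line, with no treatment or genetic change named in the labels. The groups were RNA pulled down by an antibody to LARP1 (LARP1 IP, n = 2 libraries), RNA pulled down by IgG of normal rabbit serum as the background control (IgG IP, n = 2) and unselected RNA of the fraction (Input, n = 2). Levels with anti-LARP1 or with control IgG are those of these immunoprecipitates. The series text calls the fraction free 40S, whereas the sample descriptions also use the word monosome. The labels call the replicates biological, without saying whether they were separate cultures, so p-values speak only of the spread among these 6 libraries. The labelled cell type could not be checked against epithelial markers, since the gene IDs could not be paired with the markers' symbols.

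A snoRNA host gene carries snoRNAs in its introns. After splicing, the introns release snoRNAs that guide chemical modification of ribosomal RNA, mostly methylation for the C/D class (SNORD) and pseudouridylation for the H/ACA class (SNORA), while the exons form a spliced RNA. In the genes described here that RNA codes for no known conserved protein, and several such RNAs are known to be loaded on ribosomes and degraded by nonsense-mediated decay. Many begin with a terminal oligopyrimidine (TOP) motif, a C at the cap followed by an unbroken run of pyrimidines, which they share with the mRNAs of ribosomal proteins. LARP1 is known for binding the cap and the TOP motif of such transcripts.

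The start regions are shown because the TOP motif is defined by the first bases of the RNA. The set of RefSeq start sequences used here (GRCh38.p14) held 9 of the 10 genes. SNHG6 has a RefSeq span but no sequence in that set, so it is named only. Each line runs 5′ to 3′ on the gene's own strand, with 20 bases before the RefSeq start followed by 45 bases from the start onward, and capitals mark unbroken runs of at least 5 C or T. The windows are chr17:16438967-16439031 (plus strand) for SNHG29, chr20:49278622-49278686 (plus) for ZFAS1, chr1:173869001-173869065 (minus) for GAS5 and chr6:85678689-85678753 (minus) for SNHG5. Those of the other genes are chr5:112160506-112160570 (plus) for EPB41L4A-AS1, chr17:76557744-76557808 (plus) for SNHG16, chr4:118278742-118278806 (plus) for SNHG8, chr11:62855841-62855905 (minus) for SNHG1 and chr1:28581829-28581893 (minus) for SNHG12.
SNHG29: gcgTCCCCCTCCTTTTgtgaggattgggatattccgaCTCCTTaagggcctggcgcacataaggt
ZFAS1: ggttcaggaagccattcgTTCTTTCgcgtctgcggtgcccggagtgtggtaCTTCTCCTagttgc
GAS5: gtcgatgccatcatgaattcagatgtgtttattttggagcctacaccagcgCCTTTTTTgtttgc
SNHG5: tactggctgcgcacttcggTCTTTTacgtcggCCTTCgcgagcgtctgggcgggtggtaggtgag
EPB41L4A-AS1: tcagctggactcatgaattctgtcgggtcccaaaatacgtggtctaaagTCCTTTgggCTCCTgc
SNHG16: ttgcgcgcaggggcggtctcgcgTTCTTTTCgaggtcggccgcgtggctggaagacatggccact
SNHG8: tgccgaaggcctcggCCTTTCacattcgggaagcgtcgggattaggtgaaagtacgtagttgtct
SNHG1: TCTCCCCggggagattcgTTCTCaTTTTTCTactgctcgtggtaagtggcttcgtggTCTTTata
SNHG12: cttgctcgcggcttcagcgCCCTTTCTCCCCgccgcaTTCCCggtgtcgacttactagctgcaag

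A C followed by at least 4 C or T, read on the gene's strand, lay exactly at the RefSeq start of 3 of these 9 genes, SNHG5, SNHG12 and ZFAS1. The same letters stood at the start of 4.07% of 35114 RefSeq start regions. SNHG12 had the longest such stretch at its start, with 11 pyrimidines from the first base, against 5 each in SNHG5 and ZFAS1. With a beginning anywhere within 10 bases of the start, 6 of the 9 genes held the motif (SNHG8, SNHG16 and SNHG29 in addition), as did 33.5% of all start regions. In SNHG16 the run began 4 bases into the listed RNA, in SNHG8 it ended on the first base, and in SNHG29 a run of 13 pyrimidines lay before the listed start. The start of GAS5 listed in RefSeq is upstream of a run of 8 pyrimidines at base 32. For SNHG12 and ZFAS1 the listed start lies inside the RefSeq span of the gene. Those spans begin further upstream, at chr1:28582983 (minus strand) and chr20:49278178 (plus). The letters at the start therefore belong to an internal start in these genes. These are single annotated starts, and the count files do not show which start the RNAs of HCT116 used.

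Most of the host RNAs were far more abundant with anti-LARP1 than in either control. Against the IgG IP, 8 of the 10 rose (edgeR quasi-likelihood test, Benjamini-Hochberg adjusted p under 0.05 over 10788 genes), and SNHG1 and SNHG12 did not pass. Against Input, 7 rose, and SNHG8, SNHG1 and SNHG12 did not pass. No member was called lower in either comparison, where 2.29% and 1.52% of all tested genes were. Over all tested genes, 8.54% were called higher against the IgG IP and 4.63% against Input. Among the 1380 genes at least as abundant as the least abundant member, a level set after the counts were seen, the shares were 25.8% and 20%. That level was a mean over all 6 libraries, the LARP1 IP included. Genes abundant only in the LARP1 IP could therefore reach it. Both LARP1 IP libraries lay above both IgG libraries for 9 of the 10 (27.3% of all tested genes) and above both Input libraries for 8 (28.8%). The same 7 genes rose against both controls (SNHG29, ZFAS1, SNHG6, GAS5, SNHG5, SNHG16 and EPB41L4A-AS1), where 4.37% of all tested genes did so. The comparisons share the LARP1 IP libraries and are therefore not independent. The median log2 fold change of the 10 members was 2.56 over the IgG IP and 2.14 over Input, beside medians of -0.06 and 0.03 for all tested genes.

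Totals were 4135463 to 8069554 counts per library, of which the pair of genes with the most counts took 88.6% and 87.9% in Input, 70.9% and 71.5% with control IgG and 26.6% and 21.3% with anti-LARP1 (replicates 1 and 2). Of the counts outside that pair, the 10 host genes together held 0.923% and 0.812% with anti-LARP1, 0.297% and 0.250% with control IgG and 0.358% and 0.303% in Input. The mean was 0.867% ± 0.079 with anti-LARP1 (SD, n = 2), 3.17 times that of the IgG IP and 2.62 times that of Input, and neither control overlapped with it. Of all counts the means were 0.658%, 0.0789% and 0.0387%, so the ratios became 8.34 and 17.0. Each of these comparisons gave p = 0.33 by a two-sided exact permutation test, the smallest value possible with 2 libraries on each side.

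**Figure D1:**
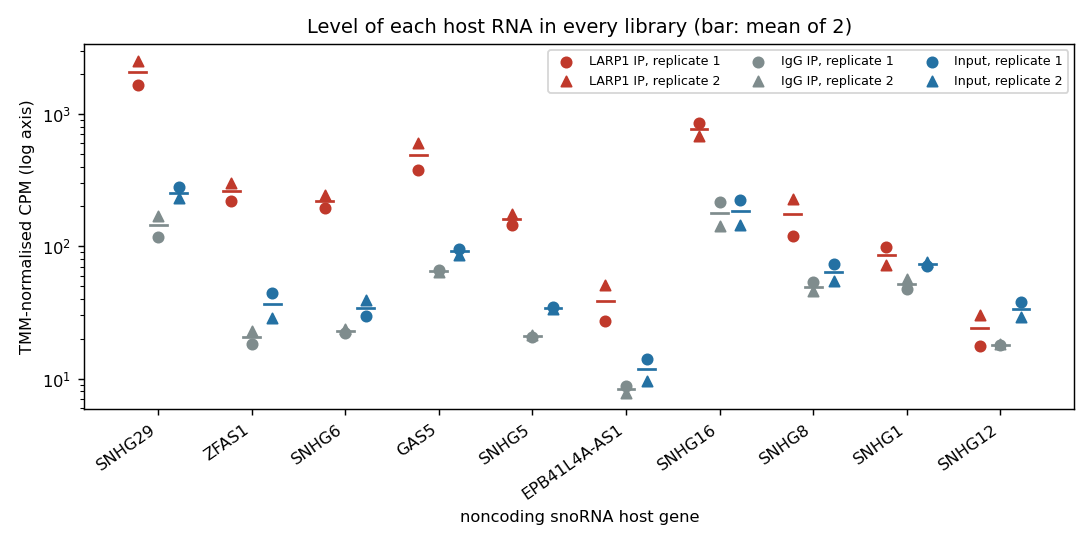
Level of each of the 10 host RNAs in every library, in TMM-normalised CPM on a log axis; circles are replicate 1, triangles replicate 2 and bars the mean of the 2 libraries. SNHG29 stood at 1651 and 2525 CPM with anti-LARP1 and at no more than 278 CPM in any control library, whereas for SNHG12 the LARP1 IP libraries overlapped with both controls.

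SNHG29 had the highest fold change of the group. It hosts SNORD49A, SNORD49B and SNORD65. Its level in CPM (counts scaled to library size with TMM factors) was 1651 and 2525 with anti-LARP1, 118 and 169 with control IgG and 278 and 230 in Input, given as replicates 1 and 2 here and below. Both LARP1 libraries were far above all 4 control libraries. The difference was 14.6-fold over the IgG IP (log2 fold change 3.86 ± 0.45 SE, edgeR adjusted p = 0.000185) and 8.22-fold over Input (3.04 ± 0.44, edgeR adjusted p = 0.00111). By fold change over the IgG IP it ranked 135 among the 10788 tested genes.

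ZFAS1, transcribed from the promoter region of ZNFX1 in the opposite direction, hosts the 3 snoRNAs of the SNORD12 family. It stood at 220.2 and 298 CPM with anti-LARP1, 18.3 and 22.8 CPM with control IgG and 44.6 and 28.6 CPM in Input. The groups did not overlap, and the replicates of the LARP1 IP were close to each other relative to the gap. ZFAS1 rose 12.6-fold over the IgG IP (log2 fold change 3.65 ± 0.45 SE, edgeR adjusted p = 0.000225) and 7.08-fold over Input (2.82 ± 0.43, edgeR adjusted p = 0.00163).

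SNHG6, host of SNORD87, stood at 194 and 245 CPM with anti-LARP1, 22.2 and 23.6 CPM with control IgG and 29.5 and 39.1 CPM in Input. It rose 9.59-fold over the IgG IP (log2 fold change 3.26 ± 0.42 SE, edgeR adjusted p = 0.000294) and 6.39-fold over Input (2.68 ± 0.41, edgeR adjusted p = 0.00162). Its lowest LARP1 library was above its highest control library by 2.31 on the log2 scale.

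GAS5 carries the most snoRNAs of the group, 10 SNORD genes and SNORA103, and is known as an RNA that accumulates when cell growth stops. It stood at 379.8 and 606 CPM with anti-LARP1, 65.6 and 63.5 CPM with control IgG and 95.9 and 86.6 CPM in Input. The control replicates lay close together and the LARP1 replicates spread more widely, all of them above the controls. GAS5 rose 7.63-fold over the IgG IP (log2 fold change 2.93 ± 0.42 SE, edgeR adjusted p = 0.000692) and 5.40-fold over Input (2.43 ± 0.41, edgeR adjusted p = 0.00335).

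SNHG5 hosts SNORD50A and SNORD50B, and its RefSeq start reads as a TOP motif. Its levels were 144 and 175 CPM with anti-LARP1, 20.8 and 21.4 CPM with control IgG and 34.6 and 33.5 CPM in Input. Its LARP1 IP replicates were the closest of the group in relative terms. SNHG5 rose 7.55-fold over the IgG IP (log2 fold change 2.92 ± 0.40 SE, edgeR adjusted p = 0.000496) and 4.69-fold over Input (2.23 ± 0.39, edgeR adjusted p = 0.00442). Its fold change over the IgG IP differed from that of GAS5 by 0.016 on the log2 scale, far less than the combined SE of 0.58.

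SNHG16, EPB41L4A-AS1 and SNHG8 formed a lower range. SNHG16, host of the SNORD1 family, stood at 849.7 and 684 CPM with anti-LARP1, 217 and 141 CPM with control IgG and 224 and 145 CPM in Input. The LARP1 libraries were above all controls, while the IgG IP and Input overlapped. SNHG16 rose 4.29-fold over the IgG IP (log2 fold change 2.1 ± 0.43 SE, edgeR adjusted p = 0.0068) and 4.15-fold over Input (2.05 ± 0.43, edgeR adjusted p = 0.0117).

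EPB41L4A-AS1, host of SNORA13, had the fewest counts in each control library and over the 6 libraries together, with 259 and 272 counts with anti-LARP1, 96 and 79 with control IgG and 42 and 31 in Input. These were 27.2 and 50.6 CPM with anti-LARP1, 8.87 and 7.84 CPM with control IgG and 14.1 and 9.62 CPM in Input. It rose 4.63-fold over the IgG IP (log2 fold change 2.21 ± 0.44 SE, edgeR adjusted p = 0.00637) and 3.27-fold over Input (1.71 ± 0.45, edgeR adjusted p = 0.0393). The call over Input rested on LARP1 IP replicate 2, without which the log2 fold change was 1.21 (edgeR adjusted p = 0.259), and it was also lost with upper-quartile scaling (1.57, edgeR adjusted p = 0.0543) and, by DESeq2, without Input replicate 2 (1.39, adjusted p = 0.341).

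SNHG8, host of SNORA24, stood at 119 and 229 CPM with anti-LARP1, 53.3 and 45.8 CPM with control IgG and 73.1 and 54.6 CPM in Input. No LARP1 library overlapped with a control, but the LARP1 replicates were the furthest apart of the 10 genes in relative terms. SNHG8 rose 3.51-fold over the IgG IP (log2 fold change 1.81 ± 0.43 SE, edgeR adjusted p = 0.0169), and over Input its log2 fold change was 1.45 ± 0.43 (edgeR adjusted p = 0.0654). Against the IgG IP the call was lost without LARP1 IP replicate 2 (log2 fold change 1.27, edgeR adjusted p = 0.13) and without IgG IP replicate 2 (1.70, edgeR adjusted p = 0.059). Against Input it was gained under several alternatives, among them DESeq2 (1.39, adjusted p = 0.0252), so its place relative to the threshold is not settled.

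SNHG1 carries 8 SNORD genes and a further snoRNA, and did not pass in either comparison. It stood at 98.8 and 72.0 CPM with anti-LARP1, 47.5 and 56.6 CPM with control IgG and 71.1 and 76.7 CPM in Input. The LARP1 libraries were above those of the IgG IP but overlapped with Input. The log2 fold change was 0.72 ± 0.38 SE over the IgG IP (edgeR adjusted p = 0.268) and 0.21 ± 0.38 over Input (edgeR adjusted p = 0.808).

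SNHG12 hosts SNORA16A, SNORA44, SNORA61 and SNORD99. It had the longest pyrimidine stretch at its listed start, which lies inside its RefSeq span. Its fold change was the lowest of the group in both comparisons. Its levels were 17.5 and 30.5 CPM with anti-LARP1, 17.9 and 18.2 CPM with control IgG and 38.2 and 29.2 CPM in Input, so the LARP1 IP overlapped with both controls. The log2 fold change was 0.41 ± 0.41 SE over the IgG IP (edgeR adjusted p = 0.582) and -0.49 ± 0.42 over Input (edgeR adjusted p = 0.543). The library counts behind these levels were 167 and 164 with anti-LARP1, 194 and 183 with control IgG and 114 and 94 in Input.

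**Figure D2:**
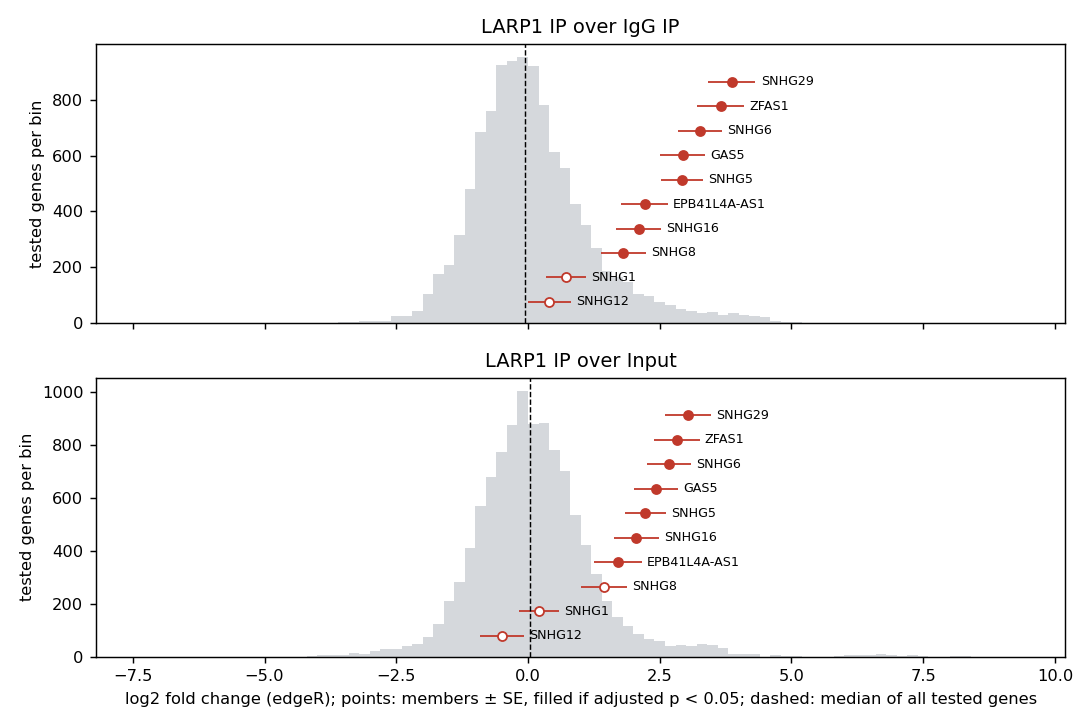
Log2 fold changes of all 10788 tested genes (grey bars, genes per bin of 0.2) and of the 10 host genes (points, with bars of 1 SE; filled where the edgeR adjusted p was under 0.05) in the LARP1 IP over the IgG IP (top) and over Input (bottom). The dashed line is the median of all tested genes. SNHG29 lay at 3.86 and 3.04, and SNHG1 and SNHG12 fell within the bulk of genes in both panels.

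Ordered by fold change over the IgG IP, the genes ran SNHG29, ZFAS1, SNHG6, GAS5, SNHG5, EPB41L4A-AS1, SNHG16, SNHG8, SNHG1 and SNHG12. Neighbours in this order differed by less than their combined SE, except SNHG5 and EPB41L4A-AS1 (a gap of 0.71 against 0.60) and SNHG8 and SNHG1 (1.09 against 0.58). Over Input, SNHG16 and EPB41L4A-AS1 changed places and the others kept theirs. There the gap was 1.24 between SNHG8 and SNHG1 (combined SE 0.58) and 0.70 between SNHG1 and SNHG12 (0.56), and the other neighbours differed by less than their combined SE. These SEs treat the genes as independent although all were read in the same 6 libraries.

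The proportions among the host RNAs within a library do not depend on how libraries are scaled to each other. SNHG29 took 44.6% and 51.4% of the members' summed counts with anti-LARP1, 19.99% and 29.7% with control IgG and 30.8% and 31.4% in Input. ZFAS1 took 5.95% and 6.06% with anti-LARP1, 3.11% and 4.001% with control IgG and 4.94% and 3.90% in Input. Both genes held a larger share in each LARP1 library than in any control library.

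The opposite held for SNHG1, SNHG8, SNHG12 and EPB41L4A-AS1. The shares are parts of the same sum, so a gene that rose can still hold a smaller share. SNHG1 took 2.67% and 1.46% with anti-LARP1, 8.07% and 9.91% with control IgG and 7.87% and 10.5% in Input. SNHG12 took 0.473% and 0.621% with anti-LARP1, 3.04% and 3.18% with control IgG and 4.23% and 3.98% in Input. SNHG8 took 3.21% and 4.66% with anti-LARP1, and between 7.45% and 9.06% in the control libraries. EPB41L4A-AS1, which rose over both controls, took 0.734% and 1.03% with anti-LARP1, and between 1.31% and 1.56% in the control libraries. GAS5 held nearly the same share everywhere, 10.3% and 12.3% with anti-LARP1 and 10.6% to 11.8% in the controls.

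Counts of SNHG29 were 94.2 and 82.8 times those of SNHG12 with anti-LARP1. That ratio was 6.57 and 9.32 with control IgG and 7.27 and 7.88 in Input. ZFAS1 and SNHG12 had nearly equal counts in the controls, with ratios from 0.979 to 1.26, and ratios of 12.6 and 9.77 with anti-LARP1. The ratio of GAS5 to SNHG1 was 3.84 and 8.42 with anti-LARP1 and 1.12 to 1.38 in the controls. These ratios set the same gene pair against itself across libraries, since counts of different genes also reflect RNA length. The pairs were chosen with the fold changes known, each a gene that passed against 1 that did not, so their separation from the controls is a description and was not tested. The ratio of SNHG1 to SNHG12, neither of which passed, was 5.64 and 2.36 with anti-LARP1 and 1.86 to 3.11 in the controls, which overlapped.

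**Figure D3:**
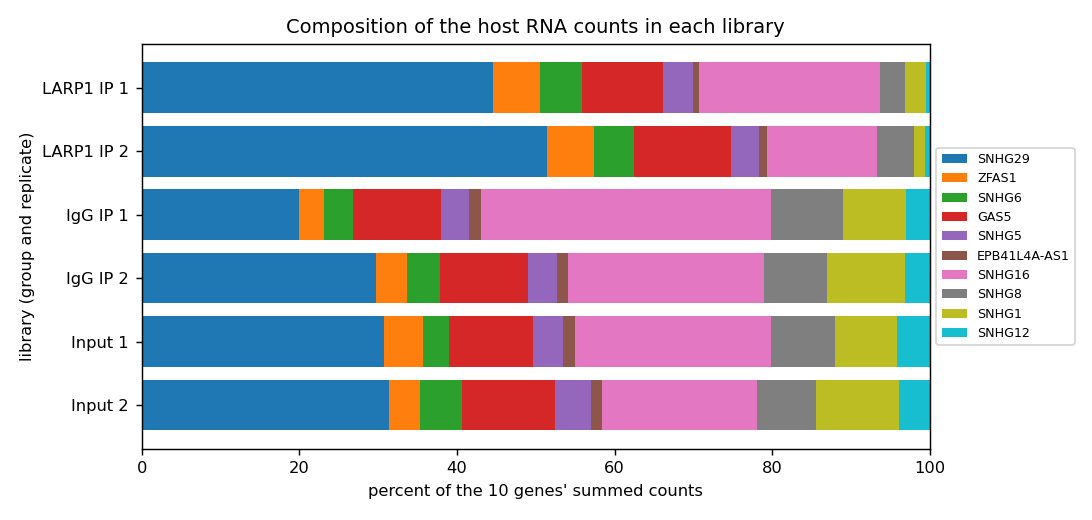
Share of each host RNA in the summed counts of the 10 genes, in percent, for each of the 6 libraries (rows). SNHG29 widens from at most 31.4% in a control library to 44.6% and 51.4% with anti-LARP1, and SNHG1 and SNHG12 narrow.

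The genes were also compared by the class of the snoRNAs they host and by their start letters. Hosting a snoRNA defines the group, so these features are not independent of the choice of members. RefSeq places 38 snoRNA genes within the spans of the 10 hosts, 31 of them SNORD and 6 SNORA. Of the 5 hosts that hold only SNORD genes (SNHG5, SNHG6, SNHG16, SNHG29 and ZFAS1), all rose over both controls. Of the 2 that hold only SNORA genes, EPB41L4A-AS1 rose over both controls and SNHG8 over the IgG IP alone, by the test used here. The other 3 hosts hold a mixture or a snoRNA of another name, and of these GAS5 rose while SNHG1 and SNHG12 did not pass. SNHG1 holds 8 SNORD genes, no SNORA gene and 1 snoRNA whose name gives no class. Its place outside the hosts with only SNORD genes therefore rests on that name. Of the 3 genes with the motif exactly at the listed start, ZFAS1 and SNHG5 rose over both controls and SNHG12 did not pass. The starts used in HCT116 are not known, and a link between start letters and recovery was not tested.

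At 5 of the genes another gene overlaps the span in RefSeq: GAS5-AS1 and ZBTB37 at GAS5, MCMDC2 at SNHG6, TRNAU1AP at SNHG12, LRRC75A at SNHG29 and EPB41L4A at EPB41L4A-AS1. The strand setting of the counting is not given in the sources used here, so reads of these partners may be counted with the hosts, and reads from the intronic snoRNAs may also be shared. The part of such reads in these levels was not tested.

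The IgG IP was set against Input to see what the control serum recovers. None of the 10 passed in the IgG IP against Input, and neither did any tested gene (0% called, edgeR quasi-likelihood test). Without adjustment, 1 member (SNHG12) and 725 tested genes were under 0.05, and the lowest edgeR adjusted p of a member was 0.737. DESeq2 called 0 of the 10 as well, and over all genes 19 higher and 19 lower of the 2422 to which it gave an adjusted p. The members' log2 fold changes ran from -0.90 (SNHG12) to -0.05 (SNHG16), with a median of -0.55 beside 0.01 for all tested genes. For 9 of the 10, all but SNHG16, both IgG libraries lay below both Input libraries, as 19.3% of all tested genes did. Scaled by library totals, with the median of all genes at 1.51, the members' median turned to 0.96 and 5 of the 10 were called higher, beside 53.9% of all tested genes. The lower level in the IgG IP is therefore relative to the bulk of genes under TMM.

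The edgeR calls against Input also depended on having both Input libraries. With edgeR none of the 10 passed without Input replicate 1 or without Input replicate 2, and neither did any of the 11562 and 11621 genes tested in these fits (0% called), so the loss was not one of the members alone. Without adjustment, 8 and 7 members were under 0.05, as were 1872 and 1189 of all tested genes. The 7 genes kept log2 fold changes between 1.47 and 3.19 with adjusted p between 0.0648 and 0.435. In the same fits DESeq2 called 7 and 6 of the 10 higher, beside 7.7% and 4.29% of the genes to which it gave an adjusted p. Scaling by totals without the pair of most abundant genes, under which the median of all genes was -1.29 against the IgG IP and -0.99 against Input, left 5 and 4 members called higher, beside 3.02% and 1.72% of all tested genes. SNHG8, SNHG16 and EPB41L4A-AS1 lost the call against the IgG IP, SNHG5, SNHG16 and EPB41L4A-AS1 lost it against Input, and SNHG12 was called lower than Input (log2 fold change -1.54, edgeR adjusted p = 0.038), as were 12% of all tested genes. With library totals, under which the median of all genes against Input was 1.75, all 10 members were called higher than Input, beside 60.9% of all tested genes, with SNHG1 and SNHG12 at log2 fold changes of 1.96 and 1.17. SNHG29, ZFAS1, SNHG6, GAS5 and SNHG5 passed against the IgG IP under all 20 alternatives.

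**Figure D4:**
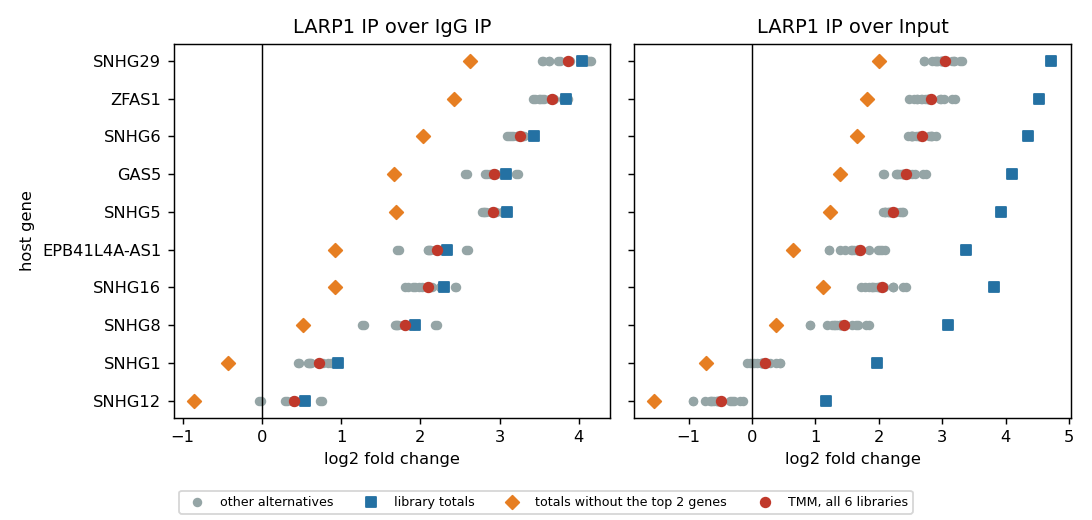
Log2 fold change of each host gene in the LARP1 IP over the IgG IP (left) and over Input (right) with TMM and all 6 libraries (red), with library totals (blue), with totals without the 2 most abundant genes (orange) and under the other alternatives (grey). The 8 genes from SNHG29 to SNHG8 stayed above 0 in every setting drawn, and SNHG1 and SNHG12 lay on either side of it.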

How the data were processed

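The authors deposited 1 file of raw counts per library, by Ensembl gene ID and without normalization. The submitters' processing notes name Subread 1.20.6 with featureCounts, TopHat2 2.1.1, Bowtie2 and CASAVA 1.8, and the build GRCh38. The libraries were stranded and made without poly(A) selection, per the labels' protocols. The members and lists were chosen with earlier results of these data known, and all 10 members are named. Lists of other snoRNA hosts and of markers were not applied, because none of the IDs could be paired with a symbol.

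Genes were kept by filterByExpr (minimum count 10), leaving 10788, with TMM scaling and 1 edgeR 4.0.16 quasi-likelihood fit of all 6 libraries (R 4.3.3, 3 residual degrees of freedom). Genes passed at a Benjamini-Hochberg adjusted p under 0.05, and the SE is the log2 fold change divided by the square root of F. Alternatives were DESeq2 1.42.0, other scalings, filters and sets of libraries. Fold changes are relative to the bulk of genes, since absolute recovery is unknown. Replicates were not duplicates: squared differences of counts within a group were 5.70 to 34.3 times those of sampling noise (chi-square per degree of freedom). That sum includes the most abundant genes. Start regions and snoRNA positions are from RefSeq, GRCh38.p14.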

Additional observations from a re-analysis of the deposited data

How the results depend on the processing

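Each of the 10 genes was refitted under 20 alternatives. Against the IgG IP, 8 members called higher became 5 (3.02% of all tested genes) with totals without the 2 most abundant genes, where the members' median log2 fold change fell from 2.56 to 1.30. Against Input, 7 called higher became 4 (1.72% of all tested genes) with that scaling and 1 was called lower (12%). The median there went from 2.14 to 1.17 with that scaling and to 3.87 with library totals. For the IgG IP against Input, library totals called 5 members higher, beside 53.9% of all tested genes, and gave a median of 0.96, and totals without the 2 genes gave -0.34. Under library totals log2 fold changes changed sign with a call for SNHG12 against Input (1.17), and in the IgG IP against Input for GAS5 (1.02), SNHG6 (0.92), SNHG8 (1.17), SNHG16 (1.51) and SNHG29 (0.68). These restate the shift of all genes. Shares of all counts in place of counts outside the top pair were 0.658% (LARP1 IP), 0.0789% (IgG IP) and 0.0387% (Input).

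Leaving out each library gave 7 to 8 members called higher against the IgG IP and 0 to 8 against Input, where both values of 0 came from edgeR without an Input library, fits that called 0 of all tested genes. The medians ran from 2.41 to 2.83 and from 1.93 to 2.35, and from -0.69 to -0.53 for the IgG IP against Input. The cause was not tested. A lone library was assumed to vary like the other groups. The start motif was in 3 genes at the start and in 6 within 10 bases. The labels link same-numbered replicates only by the number, and do not say whether they were prepared together. Deviations of same-numbered replicates correlated at 0.519 between the IgG IP and the LARP1 IP. The correlation was 0.271 between the IgG IP and Input and 0.134 between Input and the LARP1 IP. The replicate block kept 8 members against the IgG IP and gave 8 against Input, where SNHG8 passed (1.42, edgeR adjusted p = 0.012), beside 14.1% and 10% of all tested genes called higher. For the IgG IP against Input the block called 39 genes higher and 35 lower, none of them a member. The lowest count of a member was 31, for EPB41L4A-AS1 in Input, and its part in the precision was not tested.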

Other observations

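SNHG16 was higher in the library numbered 1 than in that numbered 2 in each of the 3 groups, with 849.7 against 684 CPM with anti-LARP1, 217 against 141 CPM with control IgG and 224 against 145 CPM in Input. Its share of the members' summed counts went the same way, from 23.0% and 13.9% with anti-LARP1 to 36.8% and 24.8% with control IgG and 24.8% and 19.8% in Input. SNHG6 went the other way in each group, with 194 against 245 CPM with anti-LARP1. Its levels were 22.2 against 23.6 CPM with control IgG and 29.5 against 39.1 CPM in Input. The labels name no batch for the replicate numbers, and the difference between them was not tested.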
